A study of Mus musculus with 12 samples.

Results

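The respiratory chain was examined here through its nuclear-encoded genes, in RNA-seq of sorted mouse lymph node (LN) T cells. Members were chosen by gene symbol alone: every row of the count table whose symbol began with *Nduf*, *Uqcr*, *Cox4*, *Cox5*, *Cox6*, *Cox7*, *Cox8* or *Atp5*, or was *Sdha*, *Sdhb*, *Sdhc* or *Sdhd*, without pseudogene symbols that carry "-ps". This gave 93 genes, of which 86 had a mean of at least 10 counts over the 12 samples and were used, out of 49585 genes in the table. They comprised 44 genes of complex I, 4 of complex II, 8 of complex III, 13 of complex IV and 17 of complex V. All 86 passed the filter on low counts and were tested among 13118 genes.

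The inner mitochondrial membrane holds 5 complexes. Complex I (NADH dehydrogenase) and complex II (succinate dehydrogenase) pass electrons to ubiquinone, complex III passes them to cytochrome c and complex IV (cytochrome c oxidase) to oxygen, and complex V (ATP synthase) uses the proton gradient built by complexes I, III and IV to make ATP. Most subunits are encoded in the nucleus and imported, while a few of the membrane core are encoded in mitochondrial DNA. Naive T cells rest largely on this pathway, and activation changes their metabolism towards glycolysis together with growth of the mitochondria.

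The study compared T cells of C57BL/6 (B6) mice with those of CD8 Dual (8in4) mice, in which the altered *Cd4* gene locus encodes the co-receptor chain CD8α.1 and the endogenous *Cd8* locus encodes CD8α.2. The 4 groups were CD4+ and CD8+ cells of B6 mice and the CD8.1 and CD8.2 cells of CD8 Dual mice, with 3 samples each of pooled sorted cells from males of 6 to 10 weeks. For its mice in general, the study states that both sexes were used. The labels give a sort on CD62L and the T cell receptor β chain (antibody H57), the methods also an absence of CD44, and the number of mice behind a pool is not given in the sources used here. CD8.1 cells use the *Cd4* locus as CD4+ helper T cells do, and CD8.2 cells the *Cd8* locus as cytotoxic T cells do, so that the comparisons within each strain ask about lineage and those between strains about cells of like lineage.

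Libraries held 18667474 to 37110502 counts. The co-receptor genes followed the labels: *Cd4* stood at 908 to 1000 CPM (read counts scaled to a common library size) in B6 CD4+ samples and at 0.109 to 1.79 in the B6 CD8+ and CD8.2 samples, and *Cd8a* at 1390 to 1490 CPM in B6 CD8+ and CD8.2 samples and at 0.682 to 1.49 in B6 CD4+ samples. CD8.1 samples held 47.2 to 51.5 CPM of *Cd4* and 179 to 201 CPM of *Cd8a*. Levels below are CPM scaled by the TMM method, and comparisons between genes use CPM per kb of annotated exons. In these bulk samples, fewer cells of a type and less RNA per cell cannot be told apart.

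Among the CD8.1 samples, replicate 1 stood apart from replicates 2 and 3 for many members. Replicates 2 and 3 both lay outside the range of the 9 samples of the other groups while replicate 1 lay inside it for 33 of 86 members (38.4%), against 13.8% of all tested genes. Counts of calls that rest on the CD8.1 group are therefore also given without replicate 1, as are the fold changes of some single genes. *Ndufb2* differed most between replicate 1 (13.4 CPM) and replicates 2 and 3 (7.08 and 7.74 CPM). It stood at 8.91 to 12.5 CPM in the other groups. By a chi-square per gene on raw counts, CD8.2 replicate 3 lay furthest from its group. It stood at 79.5 and 52.9 to the other CD8.2 samples, against 28.9 and 30.4 for CD8.1 replicate 1 in its group. The median coefficient of variation over all tested genes was instead lowest in the CD8.2 group (6.98%) and highest in the CD8.1 group (13.5%). The chi-square grows with depth and with single abundant genes, and CD8.2 replicate 3 was the deepest library, at 37110502 counts. This CD8.2 library held 3.14% of its counts in *Gm42418*, against 0.0878% to 0.888% in the other 11, and the lowest share of counts in the members. Without it, 2 members were higher and 4 lower in CD8.1 against CD8.2 cells and 0 were called in CD8.2 against B6 CD8+ cells. The share of all tested genes called in that fit is not given.

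For the members whose change passed the test under every alternative processing tried (*Ndufa10*, *Ndufa11*, *Sdhd* and *Cox8a*), the sequence before the start of transcription is shown to give their genomic context. It comes from RefSeq on GRCm38.p6, read 5′ to 3′ on the gene's strand, and covers the stretch nearest the start, of up to 250 bases, that holds no annotated exon. Capitals mark matches to motifs searched on both strands.
Ndufa10, chr1:92473861-92474008, minus strand: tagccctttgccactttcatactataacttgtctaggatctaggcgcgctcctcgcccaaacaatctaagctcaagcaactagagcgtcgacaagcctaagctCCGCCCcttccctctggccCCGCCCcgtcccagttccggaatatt
Ndufa11, chr17:56717686-56717761, plus strand: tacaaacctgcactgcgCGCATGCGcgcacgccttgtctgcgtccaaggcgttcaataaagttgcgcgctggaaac
Sdhd, chr9:50603850-50603909, minus strand: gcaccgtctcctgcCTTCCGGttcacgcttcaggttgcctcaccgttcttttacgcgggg
Cox8a, chr19:7217617-7217866, minus strand: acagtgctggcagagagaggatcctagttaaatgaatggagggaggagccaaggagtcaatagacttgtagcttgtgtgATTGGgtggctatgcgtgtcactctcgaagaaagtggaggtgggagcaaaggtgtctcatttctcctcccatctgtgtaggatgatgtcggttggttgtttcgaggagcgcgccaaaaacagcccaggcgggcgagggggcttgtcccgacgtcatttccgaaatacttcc

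Each of the 4 stretches holds another motif. *Ndufa10* holds a pair of GC boxes (GGGCGG, the SP1 site, here on the opposite strand), *Ndufa11* the core of the site of NRF1 (CGCATGCG), a regulator of nuclear genes for mitochondrial proteins, *Sdhd* an ETS site (CCGGAAG) of the type that GABP binds, and *Cox8a* a CCAAT box. Over the 250 bases before the start, the 74 members matched to RefSeq held the NRF1 core in 8 promoters (10.8%), against 1.55% of 27025 promoters of all genes. The ETS site was present in 14 members (18.9%) against 7.14% of all promoters, the CCAAT box in 33 (44.6%) against 34.2%, the GC box in 29 (39.2%) against 32.7%, and a YY1 site (AAGATGGC) in 1 (1.35%) against 1.58%. The promoters of all genes were not limited to genes expressed in these cells and were not matched for GC content. None of the 5 motifs contains another, and a match is a description of the letters only.

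The members were expressed in every group at nearly the same level. Their counts summed to 1.18% ± 0.0516 of a library (SD, n = 12), from 1.10% to 1.28%, with group means of 1.20% ± 0.0857 for B6 CD4+, 1.18% ± 0.0417 for B6 CD8+, 1.18% ± 0.0451 for CD8.1 and 1.15% ± 0.0443 for CD8.2 samples (SD, n = 3 each). Complex V took the greatest part, 0.444% ± 0.0214 of all counts, followed by complex I with 0.282% ± 0.0156, complex IV with 0.261% ± 0.0103, complex III with 0.128% ± 0.00523 and complex II with 0.0639% ± 0.00221 (SD, n = 12). The group means of these shares overlapped within their SDs, and the sample with the highest sum was B6 CD4+ replicate 3. The lowest sum was that of CD8.2 replicate 3, whose share of protein-coding counts was 1.18%, within the range of 1.15% to 1.32% of all samples. The 13 subunits encoded by mitochondrial DNA made up 4.81% to 5.44% of counts in CD8.1 samples, above all 9 samples of the other groups (1.79% to 3.84%).

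**Figure D1:**
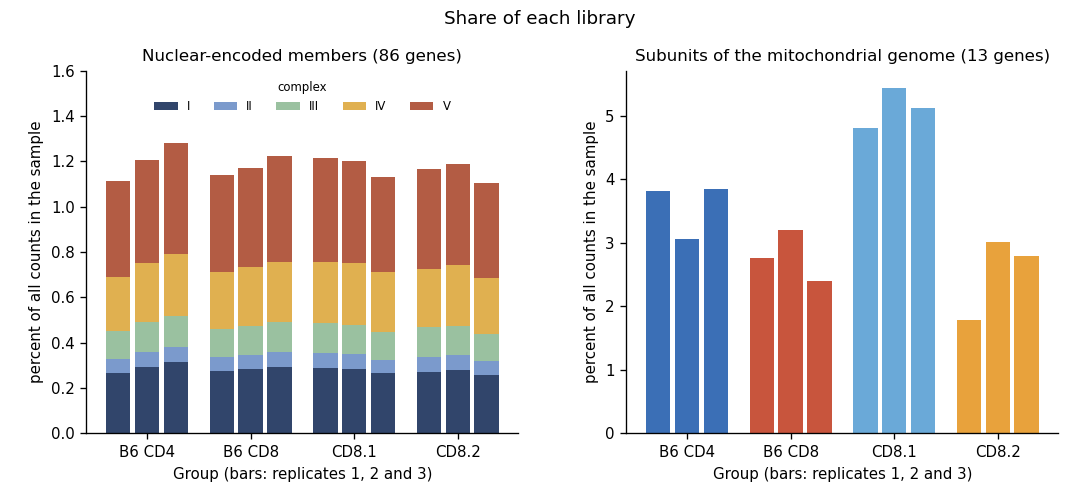
Percent of all counts of each sample in the 86 nuclear-encoded members, stacked by complex (left), and in the 13 subunits of the mitochondrial genome (right), with 3 bars per group for replicates 1, 2 and 3. The nuclear sum stays between 1.10% and 1.28% in every sample, whereas the mitochondrial sum is highest in the 3 CD8.1 samples.

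With all 12 samples in the group means, single members also varied little between groups. The highest group mean of a member exceeded its lowest by a median of 1.15 times, against 1.36 times over all tested genes. The ratio was under 1.25 for 67 of 86 members (77.9%) against 34.6% of all tested genes, and it reached 2 for 0 members against 19.1% of all. Within groups, the members' median coefficient of variation was 8.98% for B6 CD4+, 4.68% for B6 CD8+, 9.04% for CD8.1 and 4.23% for CD8.2 samples, and 10 members exceeded 20% in the CD8.1 group, against 0 or 1 in each other group. The order of members by level was nearly the same in all groups, with a Spearman rho of 0.992 to 0.997 between group means per kb over 86 genes, which share gene lengths and are given as a description.

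Levels per kb differed between complexes and within them. The median member stood at 93.0 CPM per kb. Complex I had the lowest median of the complexes, 49.2 CPM per kb. Its symbols include assembly factors, which are not part of the finished enzyme. These 8 genes (*Ndufaf1* to *Ndufaf8*) had a median of 9.55, the 29 accessory subunits of 63.2 and the 7 core subunits, which carry the electrons from NADH to ubiquinone, of 48.3 CPM per kb. Medians were 88.6 in complex II, 131 in complex III, 166 in complex IV and 167 in complex V. *Ndufs1*, the largest core subunit, stood at 24.9 CPM per kb, and the accessory subunits spanned 2.35 (*Ndufb2*) to 210 CPM per kb (*Ndufa6*).

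**Figure D2:**
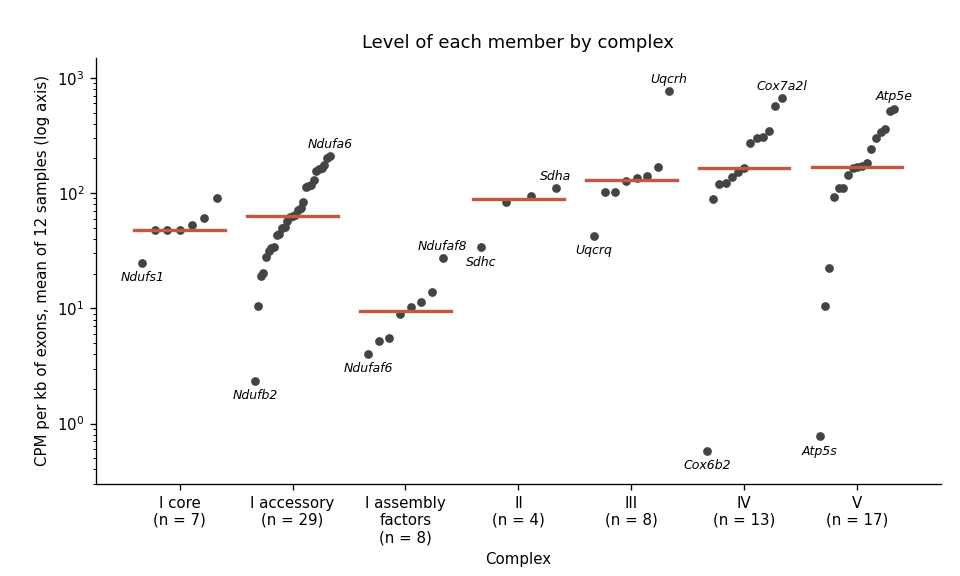
Level of each member in CPM per kb of exons, as the mean of 12 samples on a log axis, by complex and, for complex I, by role, with the median of each class as a red line and the lowest and highest member named (for the core of complex I the lowest). The assembly factors of complex I lie lowest, with a median of 9.55 CPM per kb, and *Cox6b2* and *Atp5s* lie far below the other members of their complexes.

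The member with the highest level per kb was *Uqcrh*, the hinge protein of complex III, at 769 CPM per kb, and complex III reached down to 42.8 for *Uqcrq*. *Cox7a2l*, which joins complexes III and IV in supercomplexes and is no subunit of complex IV alone, followed at 665 CPM per kb, and *Cox4i1*, the common isoform of subunit 4, stood at 569. In complex V, *Atp5e*, the epsilon subunit of the central stalk, stood at 539 and *Atp5b*, whose beta subunit holds the catalytic sites, at 519 CPM per kb. The lowest members were *Cox6b2* at 0.584 and *Atp5s* at 0.777 CPM per kb. *Atp5s* (coupling factor B) and *Atp5sl* (10.5 CPM per kb, linked to complex I assembly) carry the name of the ATP synthase without being subunits of it, and the lowest true subunit of complex V was *Atp5g1* at 22.4. *Ndufb2* and *Atp5g1* have annotated exons of 4375 and 4912 bases, a length that lowers a level per kb.

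Complex II, which also serves the tricarboxylic acid cycle, had the narrowest range of levels among the complexes, with the highest of its 4 genes at 3.25 times the lowest. *Sdha*, the flavoprotein that oxidizes succinate, stood at 110 CPM per kb, the iron-sulfur subunit *Sdhb* at 94.1, and the membrane anchors *Sdhd* and *Sdhc* at 83.1 and 33.8. *Sdha* measured 319, 328 and 301 CPM in CD4+ and 323, 319 and 309 CPM in CD8+ samples of B6 mice, and 310, 318 and 313 CPM in CD8.1 and 329, 332 and 336 CPM in CD8.2 samples, so that all 12 samples lay within a narrow band. *Sdhb* group means were 104 ± 2.97, 106 ± 4.16, 114 ± 7.63 and 105 ± 2.82 CPM in the same order of groups (SD, n = 3), and those of *Sdhc* 113 ± 7.27, 106 ± 3.32, 109 ± 12.5 and 111 ± 8.82 CPM. Of the 4 genes, *Sdhd* alone changed in any comparison, as described with the CD8.1 and CD8.2 cells.

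Subunits with tissue-specific isoforms were read almost entirely from the common isoform. *Cox6b1* made up 99.7% to 99.9% of the summed level per kb of both subunit 6b genes, and the testis isoform *Cox6b2*, with 5 to 17 counts per sample and a mean of 10.25 counts, was the member just inside the limit of 10 counts. Just outside it was *Cox7a1*, the heart and muscle isoform of subunit 7a, with a mean of 2.58 counts, against 28458 counts in all for *Cox7a2*. *Cox4i2*, *Cox6a2* and *Ndufa4l2* had 18, 10 and 1 counts over the 12 samples, against 122704 for *Cox4i1*, 48757 for *Cox6a1* and 48199 for *Ndufa4*, a gene named for complex I whose product is now counted as a subunit of complex IV. *Cox7b2*, *Cox8b* and *Cox8c* had 0 counts in every sample, a count that allows up to 3 counts per library, while *Cox7b* and *Cox8a* had 38590 and 53348. Subunit c of the ATP synthase ring, of which 3 genes encode the same mature protein, came mainly from *Atp5g3*, with 72.3% of the level per kb, then *Atp5g2* with 22.3% and *Atp5g1* with 5.41%. With the longest coding transcript as the length these shares were 56.8%, 38.8% and 4.41%, in the same order.

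In B6 mice, CD4+ and CD8+ T cells were compared to ask how helper and cytotoxic cells differ. 3 of 86 members changed at an adjusted P under 0.05 (3.49%), against 23.1% of all tested genes. All 3 were lower in CD4+ T cells, with 11.7% of all genes lower, and 0 members were higher by edgeR, with 11.4% of all genes higher (1 member, *Ndufa11*, at an unadjusted P under 0.05, and 1 member by DESeq2). Groups did not overlap for 10 members (11.6%), against 39.0% of all genes. By the study's limits for differentially expressed genes (DEGs), a fold change over 5 with an unadjusted P under 0.05, 0 members were DEGs, against 3.29% of all genes. The median log2 fold change of the members was -0.0063, against -0.0011 over all tested genes, and the 95% interval lay within 1.5-fold in either direction for 84 of 86.

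*Ndufa10*, an accessory subunit of complex I (chromosome 1, bases 92439010 to 92473860, minus strand), measured 89.0, 90.4 and 99.4 CPM in B6 CD4+ and 114, 124 and 119 CPM in B6 CD8+ samples. All 3 CD4+ samples were lower, with a log2 fold change of -0.36 (SE 0.0734, adjusted P = 0.00195). *Cox8a*, the common isoform of subunit 8 of complex IV (chromosome 19, bases 7215153 to 7217616, minus strand), measured 149, 155 and 182 CPM in CD4+ and 204, 205 and 207 CPM in CD8+ samples, again without overlap, with a log2 fold change of -0.34 (SE 0.0878, adjusted P = 0.0101). *Cox5b*, another nuclear-encoded subunit of complex IV (chromosome 1, bases 36691449 to 36693681, plus strand), measured 93.0, 98.9 and 104 CPM in CD4+ and 120, 116 and 123 CPM in CD8+ samples, with a log2 fold change of -0.28 (SE 0.0851, adjusted P = 0.0268). *Cox5b* was no longer called without CD4+ replicate 1 or 2 or CD8+ replicate 1 or 3. The other members of complex IV spanned log2 fold changes of -0.27 (*Cox6b2*) to 0.12 (*Cox4i1*), and no member of complexes II, III and V was called.

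In CD8 Dual mice, CD8.1 cells were compared with CD8.2 cells to ask the same question where both cells carry CD8 co-receptors. 10 of 86 members changed (11.6%), against 28.7% of all tested genes. Of these, 4 were higher in CD8.1 cells, where 14.9% of all genes were higher, and 6 lower, where 13.8% were lower. Groups did not overlap for 22 members (25.6%), against 40.7% of all genes, and 0 members were DEGs, against 3.32%. 7 of the 10 belonged to complex I, 1 each to complexes II, IV and V, and 0 of 8 to complex III. Without CD8.1 replicate 1, 12 members were higher and 19 lower, 31 in all (36%), against 37.4% of genes, and these included all 10. Without CD8.1 replicate 2, 1 member was higher (*Ndufa11*) and 3 were lower, with *Ndufa9*, *Ndufaf4*, *Ndufs1*, *Ndufv3*, *Cox6b1* and *Ndufa12* no longer called, and without any other CD8.1 or CD8.2 sample 1 or 2 were higher and 4 to 6 lower.

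**Figure D3:**
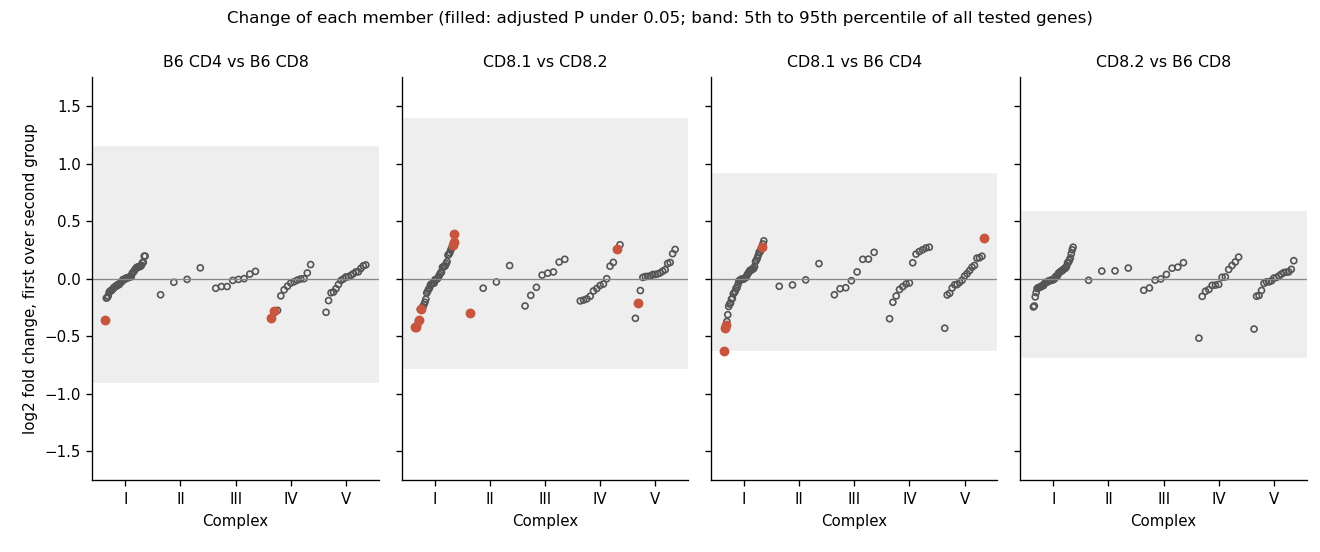
Log2 fold change of each of the 86 members in the 4 comparisons, by complex, with filled points for an adjusted P under 0.05 and a grey band from the 5th to the 95th percentile of all 13118 tested genes. Members lie close to 0, with 3, 10, 5 and 0 filled points from left to right and a range of -0.63 to 0.39.

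*Ndufa10* had the smallest adjusted P. It measured 81.9, 90.8 and 82.1 CPM in CD8.1 and 109, 117 and 114 CPM in CD8.2 samples, so that all 3 CD8.1 samples were lower, with a log2 fold change of -0.42 (SE 0.0736, adjusted P = 0.000596). *Ndufa10* thus changed in the same direction between lineages in both strains, each against its own controls, and the strain difference in this change was -0.06 (SE 0.104, 95% interval -0.28 to 0.16, adjusted P = 0.848). The lineage change of *Ndufa10* was called under all 16 alternatives in B6 and all 17 in CD8 Dual mice.

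*Sdhd*, a membrane anchor of complex II (chromosome 9, bases 50596357 to 50603812, minus strand), measured 101, 92.6 and 83.9 CPM in CD8.1 and 113, 115 and 113 CPM in CD8.2 samples. The groups did not overlap, and the log2 fold change was -0.30 (SE 0.0764, adjusted P = 0.00892). In B6 mice *Sdhd* stood at 96.8 ± 5.28 CPM in CD4+ and 107 ± 3.11 CPM in CD8+ T cells, a log2 fold change of -0.14 (SE 0.0763, adjusted P = 0.228). *Ndufs1*, the largest core subunit of complex I with iron-sulfur clusters, measured 73.4, 56.2 and 57.2 CPM in CD8.1 and 82.7, 78.3 and 78.4 CPM in CD8.2 samples (log2 -0.36, SE 0.0935, adjusted P = 0.00964). *Atp5b*, the catalytic beta subunit, measured 937, 929 and 895 CPM in CD8.1 and 1055, 1076 and 1069 CPM in CD8.2 samples, the smallest called change by size at -0.21 on the log2 scale (SE 0.0595, adjusted P = 0.0146).

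**Figure D4:**
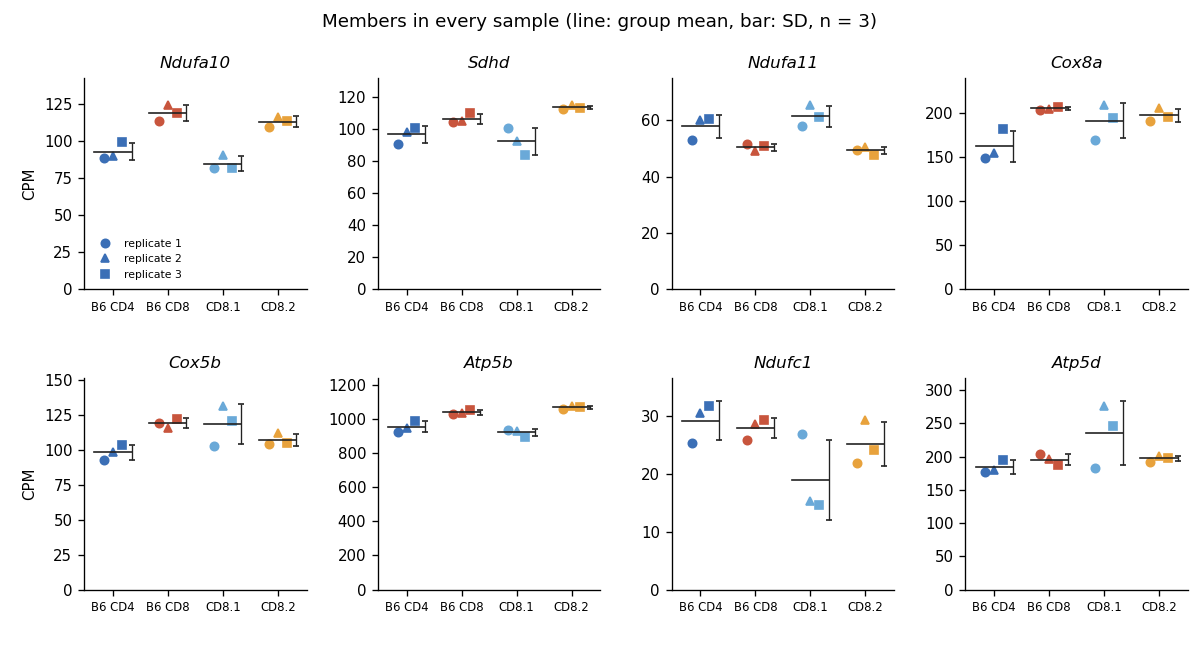
CPM of 8 called members in every sample, with replicates 1 to 3 of each group as circles, triangles and squares, the group mean as a line and its SD as a bar (n = 3). *Ndufa10* is lower in both *Cd4*-locus groups, whereas *Ndufc1* and *Atp5d* differ between replicate 1 and replicates 2 and 3 of the CD8.1 group.

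Further members of complex I that were lower in CD8.1 cells were *Ndufa9*, an accessory subunit near the ubiquinone site, at 90.4 ± 6.02 against 108 ± 8.80 CPM (SD, n = 3, log2 -0.26, adjusted P = 0.0379), and *Ndufaf4*, an assembly factor, at 16.02 ± 2.75 against 21.4 ± 1.29 CPM (log2 -0.42, adjusted P = 0.0137). All 8 assembly factors had a log2 fold change below 0 in this comparison, from -0.42 to -0.04 with a median of -0.18, although *Ndufaf4* alone passed the test. Groups did not overlap for 5 of the 8, where 40.7% of all tested genes did not overlap, and without CD8.1 replicate 1 the log2 fold changes spanned -0.58 to 0.11. *Ndufa11*, an accessory subunit of the membrane arm (chromosome 17, bases 56717767 to 56722141, plus strand), was higher, at 57.8, 65.3 and 61.1 CPM in CD8.1 and 49.6, 50.5 and 47.8 CPM in CD8.2 samples, with no overlap (log2 0.32, SE 0.0772, adjusted P = 0.0062). In B6 mice its log2 fold change was 0.20 (SE 0.0771, adjusted P = 0.0829), with CD4+ samples at 53.0, 59.9 and 60.4 CPM above all CD8+ samples (49.0 to 51.6 CPM).

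*Ndufv3*, a small subunit of the NADH module, was higher in CD8.1 at 71.2 ± 8.74 against 58.1 ± 3.04 CPM (log2 0.29, adjusted P = 0.0258), and *Cox6b1*, which lies on the cytochrome c side of complex IV, at 214 ± 25 against 179 ± 8.73 CPM (log2 0.26, adjusted P = 0.0383). *Ndufa12*, an accessory subunit of complex I, measured 41.7, 66.5 and 59.6 CPM in CD8.1 and 42.5, 44.2 and 41.2 CPM in CD8.2 samples. Its groups overlapped through CD8.1 replicate 1, and it was called at a log2 fold change of 0.39 (SE 0.138, adjusted P = 0.0438), which became 0.55 without that replicate.

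CD8.1 T cells were compared with B6 CD4+ T cells to ask how far cells that use the *Cd4* locus for a CD8 co-receptor match helper cells. 5 of 86 members changed (5.81%), against 12.8% of all tested genes. The 2 that were higher in CD8.1 cells compare with 6.94% of all genes higher, and the 3 that were lower with 5.82% lower. Groups did not overlap for 5 members (5.81%), against 25.5% of all genes, and 0 members were DEGs, against 0.610%. Without CD8.1 replicate 1, 14 members were higher and 13 lower, 27 in all (31.4%), against 22.1% of genes, and these included all 5. Without CD8.1 replicate 2, CD8.1 replicate 3 or B6 CD4+ replicate 2, 0 members were called, and without B6 CD4+ replicate 1 or 3 the calls were 0 higher and 2 lower or 4 higher and 1 lower.

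*Ndufb10*, an accessory subunit of the membrane arm of complex I, measured 89.4, 103 and 103 CPM in CD8.1 and 76.0, 80.1 and 87.4 CPM in B6 CD4+ samples, with no overlap (log2 0.28, SE 0.0812, adjusted P = 0.0369). *Atp5d*, the delta subunit of the central stalk of ATP synthase, measured 183, 277 and 246 CPM in CD8.1 and 178, 180 and 196 CPM in CD4+ samples. Here replicate 1 lay among the CD4+ samples and the other two above them, with a log2 fold change of 0.35 (SE 0.111, adjusted P = 0.0498) that became 0.49 without replicate 1. *Ndufs4*, an accessory subunit whose loss causes Leigh syndrome, measured 70.1, 56.9 and 49.8 CPM in CD8.1 and 71.2, 77.9 and 84.3 CPM in CD4+ samples, lower without overlap (log2 -0.40, SE 0.105, adjusted P = 0.0214).

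*Ndufa2*, an accessory subunit of the matrix arm, measured 90.9, 69.8 and 63.9 CPM in CD8.1 and 90.7, 105 and 105 CPM in CD4+ samples (log2 -0.43, SE 0.107, adjusted P = 0.0181). *Ndufc1*, of the membrane arm, measured 26.9, 15.3 and 14.6 CPM in CD8.1 and 25.4, 30.6 and 31.9 CPM in CD4+ samples, the change of greatest size among the members in the 4 comparisons (log2 -0.63, SE 0.186, adjusted P = 0.0375), which became -0.98 without replicate 1. For both genes CD8.1 replicate 1 overlapped the CD4+ samples, while replicates 2 and 3 lay below them. *Cox5b* and *Cox6b1* were just short of the limit, at log2 0.27 with adjusted P values of 0.0514 and 0.0548.

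Cells of the cytotoxic lineage, CD8.2 and B6 CD8+, which both use the *Cd8* locus for CD8, were compared between strains. 0 of 86 members changed by edgeR (2 at an unadjusted P under 0.05, *Ndufv3* and *Cox7a2l*), by DESeq2 and by limma-voom, against 7.94% of all tested genes by edgeR. The groups of 22 members did not overlap (25.6%), against 36.3% of all genes, and 0 members were DEGs, against 0.579%. *Ndufv3* measured 54.9, 58.5 and 60.9 CPM in CD8.2 and 68.8, 66.8 and 71.0 CPM in B6 CD8+ samples (log2 -0.24, SE 0.0917, adjusted P = 0.118). *Cox7a2l* measured 780, 848 and 815 CPM in CD8.2 and 706, 755 and 682 CPM in B6 CD8+ samples (log2 0.19, SE 0.0842, adjusted P = 0.19). The 95% interval lay within 1.5-fold for 82 of 86 members. When only these 2 groups entered the fit, 1 member was called higher and 2 lower.

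How the lineage change itself differed between strains was tested as the CD8.1 to CD8.2 difference minus the CD4+ to CD8+ difference. It was called for 0 of 86 members by edgeR, against 1.87% of all tested genes, with 9 members at an unadjusted P under 0.05 and *Cox5b* called by DESeq2. *Cox5b* had the smallest P: it was lower in CD4+ than CD8+ cells of B6 mice, while CD8.1 samples measured 103, 132 and 121 CPM and CD8.2 samples 105, 112 and 105 CPM. The difference was 0.42 on the log2 scale (SE 0.12, 95% interval 0.16 to 0.68, adjusted P = 0.11). The next were *Ndufaf3*, an assembly factor that acts together with *Ndufaf4*, at -0.39 (adjusted P = 0.235), *Cox8a* at 0.29 (adjusted P = 0.321), *Ndufb6*, of the membrane arm, at -0.46 (adjusted P = 0.327), and *Ndufs4* at -0.34 (adjusted P = 0.329). For *Cox8a*, CD8.1 samples measured 170, 209 and 195 CPM and CD8.2 samples 191, 206 and 195 CPM, so that these groups overlapped where the B6 groups did not. Without CD8.1 replicate 1, 6 members had a higher and 8 a lower value than 0, 14 in all (16.3%), against 10.1% of genes, among them *Ndufb6* at -0.72 (adjusted P = 0.00278) and *Cox5b* at 0.50 (adjusted P = 0.00423).

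For all 8 members of complex III, among them the catalytic iron-sulfur protein *Uqcrfs1* and the core proteins *Uqcrc1* and *Uqcrc2*, the 95% interval of the fold change lay within 1.5-fold in each of the 4 pairwise comparisons and for the strain difference. Their log2 fold changes spanned -0.08 to 0.06 in B6 CD4+ against CD8+, -0.24 to 0.17 in CD8.1 against CD8.2, -0.14 to 0.23 in CD8.1 against B6 CD4+ and -0.10 to 0.14 in CD8.2 against B6 CD8+ cells. The same held for the 4 genes of complex II and the 7 core subunits of complex I with all 12 samples. Without CD8.1 replicate 1, it held again for complexes II and III, while among the core subunits the interval of *Ndufs1* in CD8.1 against CD8.2 cells passed 1.5-fold, at a log2 fold change of -0.51 (SE 0.0684). For complex V, 15 to 16 of 17 members had such an interval in the pairwise comparisons, and for the assembly factors of complex I 8 of 8 in B6 CD4+ against CD8+ and 6 of 8 in each of the others. The accessory subunits of complex I had 24 to 29 of 29 and complex IV 12 of 13. For the strain difference, these sets had 13 of 17, 5 of 8, 22 of 29 and 10 of 13. Without CD8.1 replicate 1, complex V had 15, 14 and 13 of 17 in CD8.1 against CD8.2, against B6 CD4+ and for the strain difference. In the same order, the assembly factors had 5, 5 and 2 of 8, the accessory subunits 24, 22 and 22 of 29 and complex IV 11, 12 and 9 of 13. The assembly factors had a median log2 fold change of -0.18 in CD8.1 against CD8.2 and of 0.13 in CD8.2 against B6 CD8+ cells, comparisons that share the CD8.2 samples.

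Over the 4 pairwise comparisons, which share samples, 17 members were called at least once and 69 in none, against 42.4% of all tested genes called at least once. *Ndufa10* was the only member called in 2 of them.

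The split within the CD8.1 group was seen across complexes. Of the 33 members for which replicates 2 and 3 lay outside the other 9 samples and replicate 1 inside, 19 were above and 14 below, and they comprised 17 of complex I, 1 of complex II, 4 of complex III, 7 of complex IV and 4 of complex V. The reverse, with replicate 1 alone outside, held for 3 members (3.49%), against 13% of all tested genes. *Atp5e*, the epsilon subunit of ATP synthase, measured 242, 164 and 150 CPM in CD8.1 replicates 1, 2 and 3, with 211 to 269 CPM in the other groups. *Ndufb6* measured 45.1, 28.9 and 29.0 CPM, with 39.5 to 48.7 CPM in the other groups, and *Cox6a1*, the common isoform of subunit 6a, 161, 225 and 210 CPM, with 154 to 190 CPM elsewhere.

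**Figure D5:**
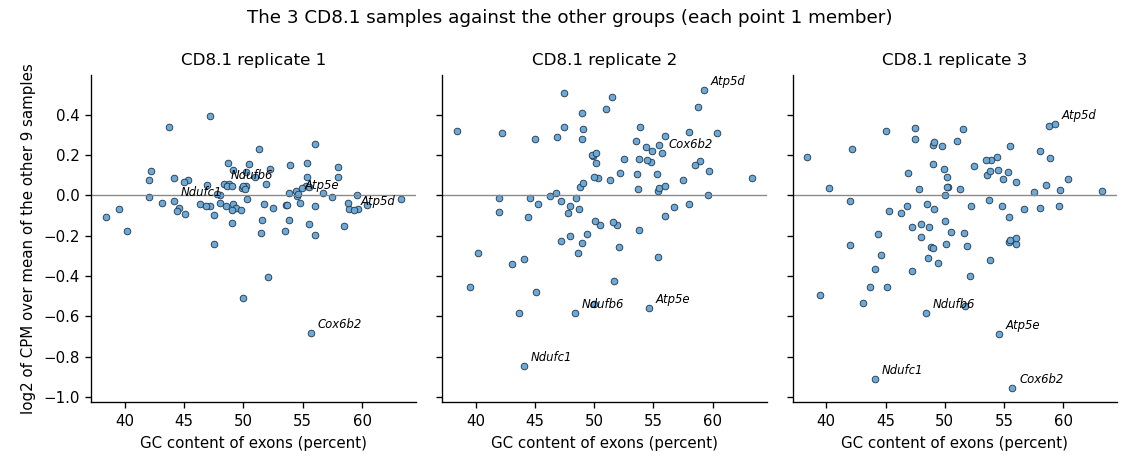
Log2 of each member's CPM in the 3 CD8.1 samples over its mean in the other 9 samples, against the GC content of its exons, with 1 point per member and 5 members named. The points of replicate 1 lie close to 0, while those of replicates 2 and 3 spread further and rise with GC content, with a Spearman rho of 0.311 for the ratio of replicates 2 and 3 to replicate 1 over 86 genes.

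The ratio of the mean of replicates 2 and 3 to replicate 1 passed 1.25-fold for 24 members, and that of replicate 3 to replicate 2 for 3. It moved with base composition: members under the median GC content of 50.2% had a median log2 ratio of -0.09 and those at or above it 0.08, and over all tested genes the deviation of a sample from the mean of 12 correlated with GC content at a Spearman rho of -0.26 in replicate 1 and of 0.218 and 0.212 in replicates 2 and 3. In the other groups it was -0.166, -0.196 and -0.236 in the CD8.2 samples and -0.0883 to 0.158 in the B6 samples, so that CD8.2 samples lay on the side of CD8.1 replicate 1. With replicate 1 left out and a GC offset in the fit, 32 members were called between CD8.1 and CD8.2 cells (37.2%, against 33.7% of all tested genes). Between CD8.1 and B6 CD4+ cells 27 were called (31.4%, against 21.4%). Without the offset the counts were 31 (36%, against 37.4%) and 27 (31.4%, against 22.1%). The part of base composition in the split between replicates was not tested.

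Other genes of the pathway were described from lists. Of 41 assembly factors outside the member rule, 40 were tested: 4 rose and 6 fell in B6 CD4+ against CD8+ cells, 3 rose and 7 fell in CD8.1 against CD8.2 cells, 3 fell in CD8.1 against CD4+ cells and 1 fell in CD8.2 against B6 CD8+ cells. These are 25%, 25%, 7.5% and 2.5% of the list, against 23.1%, 28.7%, 12.8% and 7.94% of all tested genes, so that the list was near the background or below it. *Sdhaf1*, which inserts iron-sulfur clusters into complex II, rose in both lineage comparisons, by log2 0.83 (SE 0.123, adjusted P = 0.000115) in B6 and 0.83 (SE 0.124, adjusted P = 0.000133) in CD8 Dual mice. *Lyrm7*, which serves the iron-sulfur protein of complex III, fell by 1.20 on the log2 scale in B6 CD4+ cells (adjusted P = 8.02e-05), and *Lrpprc*, which stabilizes mitochondrial mRNA, fell by 0.49 in CD8.1 cells (adjusted P = 0.000344). Each was also lower in the other strain. *Lyrm7* stood at 4.0 ± 0.367 CPM in CD8.1 and 6.47 ± 0.341 in CD8.2 samples. *Lrpprc* stood at 83.2 ± 2.72 CPM in B6 CD4+ and 102 ± 5.57 in B6 CD8+ samples (SD, n = 3). Against B6 CD4+ cells, *Cox16*, *Cox14* and *Sdhaf4* fell in CD8.1 cells by 0.54, 0.39 and 0.50 on the log2 scale.

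Of 7 genes for ATP export and phosphate import, *Slc25a4*, the ADP/ATP carrier of heart and muscle, changed most: it fell by 1.08 on the log2 scale (SE 0.0677, adjusted P = 7.47e-09) in CD4+ against CD8+ cells and by 0.99 (SE 0.0676, adjusted P = 2.72e-08) in CD8.1 against CD8.2 cells. Of 16 electron carrier genes, 0 rose, and 2 fell in CD4+ and 3 in CD8.1 cells in the lineage comparisons, *Etfdh* and *Coq2*, which feed and build ubiquinone, in both. The shares called, 12.5% and 18.8%, were below those of all tested genes, 23.1% and 28.7%. Of 13 genes of the tricarboxylic acid cycle, *Idh3a* and *Dlst* fell in CD4+ cells, by 0.41 and 0.27 on the log2 scale, and in CD8.1 against CD8.2 cells *Idh3a* and *Suclg2* fell by 0.31 and 0.25 and *Mdh2* rose by 0.26. Of 12 tested regulators of mitochondrial biogenesis, *Gabpb1*, a subunit of the ETS factor GABP, rose in both lineage comparisons, by log2 0.33 and 0.41 (adjusted P = 0.00243 and 0.00049), while *Myc* fell by 0.50 in CD4+ cells and *Yy1* by 0.26 in CD8.1 cells. In B6 and CD8 Dual mice, the shares called were 14.3% and 28.6% for ATP export and phosphate import. They were 15.4% and 23.1% for the tricarboxylic acid cycle and 16.7% and 16.7% for the regulators. With 23.1% and 28.7% of all tested genes called, each of these lists was near the background or below it. Of the 13 subunits of the mitochondrial genome, 9 rose in CD8.1 against CD8.2 cells, 7 against B6 CD4+ cells and 0 changed between CD4+ and CD8+ cells, with log2 fold changes of -0.08 to 1.67, of -0.07 to 1.63 and of 0.06 to 0.53. These calls are 69.2%, 53.8% and 0% of the list, against 28.7%, 12.8% and 23.1% of all tested genes. In CD8.2 against B6 CD8+ cells 1 rose (7.69%, against 7.94% of all tested genes), with log2 fold changes of -0.45 to 0.77. For the strain difference 1 was called higher (7.69%, against 1.87%).

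Markers of other cells and states moved with the groups. The summed level of 5 regulatory T cell markers was 133 to 185 CPM for B6 CD4+, 55.1 to 59.8 for B6 CD8+, 350 to 385 for CD8.1 and 54.0 to 56.4 for CD8.2 samples. That of 9 memory or effector markers was 133 to 167, 1500 to 1870, 343 to 387 and 989 to 1020 CPM in the same order, and that of 6 cycling markers 27.5 to 57.8, 25.2 to 106, 52.7 to 98 and 25.1 to 48.6 CPM. The 9 memory or effector markers did not move together. In CD8.1 against CD8.2 cells 2 were called higher and 6 lower (88.9%, against 28.7% of all tested genes). Group means of *Cd44* and *Gzmb* were highest in CD8.1 samples (72.0 and 5.73 CPM, against 55.2 and 0.945 in CD8.2 samples). The 5 B cell markers summed to 66.2 to 83.0, 56.5 to 69.1, 92.8 to 143 and 66.9 to 117 CPM, the 5 myeloid markers to 3.59 to 6.59, 2.55 to 4.86, 12.9 to 16.9 and 7.41 to 18.8 CPM, the 3 natural killer markers to 2.89 to 5.15, 495 to 552, 7.55 to 10.8 and 373 to 436 CPM (of which *Ncr1* stayed at 0 to 0.345), and the 5 erythroid markers to 2.23 to 26.2, 0.614 to 15.8, 1.85 to 26.3 and 2.56 to 3.18 CPM. The natural killer sum was mostly *Nkg7*, with means of 525 CPM in B6 CD8+ and 408 CPM in CD8.2 samples. *Klrb1c* stood at 1.9 and 1.5 CPM there. In B6 CD8+ samples, *Ly6c2* (765 CPM) and *Il2rb* (473 CPM) took the greatest part of the memory or effector sum. No marker of these lists was at 0 in every sample. Their part in the changes of the members was not tested.

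Of the 86 members, 38 overlap another annotated gene, and strand use in counting is not given in the sources used here. Among the members named above, *Ndufa10*, *Ndufa9*, *Ndufa11*, *Ndufs1*, *Ndufa2*, *Ndufb2*, *Ndufb6*, *Ndufaf3*, *Cox4i1*, *Uqcrc2*, *Uqcrh*, *Atp5b*, *Atp5d*, *Sdha* and *Atp5g2* do, so that reads of these genes and their neighbours may not be separated.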

How the data were processed

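RNA-seq of 4 groups with 3 samples each was analysed. Per the labels and the study's methods, the authors prepared RNA from pooled sorted cells, made libraries with a SMARTer low-input kit, sequenced them in pairs, aligned reads to mm10 with STAR and counted with RSEM. The deposited values are raw counts per gene, as whole numbers without normalization, for 49585 genes. Versions of STAR and RSEM, annotation release and strand use are not given in the sources used here. Groups and replicate numbers came from the sample labels, and all 12 columns matched a sample (0 left over). Whether the samples of a group are separate animals is not stated, so P values measure the spread between samples of pooled cells, which may be technical.

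Counts were analysed with edgeR 4.0.16 in R 4.3.3 (TMM, filterByExpr, glmQLFit and glmQLFTest, a model of 4 group means over 12 samples), with Benjamini-Hochberg adjustment over 13118 genes and a call at an adjusted P under 0.05. The study states a DEG rule (over 5-fold, P under 0.05) and no fit. The biological coefficient of variation was 11.2%. Standard errors and 95% intervals come from the quasi-likelihood F test. The same script was tested on simulated data. Exon lengths, GC content and positions were taken from GENCODE M21 (GRCm38), and promoters from RefSeq (GRCm38.p6), where 71 members matched by symbol and 3 by synonym. Replicates were compared first, and no samples agreed within sampling noise. Same-numbered B6 samples deviated together (r 0.126 to 0.257), so that their numbers were taken to pair them, on this correlation alone. The main model has no term for this pairing, so that its P values, standard errors and intervals leave it out. The pairing entered only the alternative fit with a replicate block. For CD8 Dual samples this was less clear (r -0.00388 to 0.119, against -0.127 to 0.0321 for unlike numbers), and they were not taken as paired. Same-numbered samples of different strains did not deviate together (r -0.197 to -0.00411).

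The members and lists were chosen with earlier results of these data known. Genes named were, per comparison, all called members (at most 12), the 5 with the smallest interaction P, the extremes of level per complex, the *Sdh* genes, isoform sets, members at the count limit and misnamed members. *Atp5e*, *Ndufb6* and *Cox6a1* as examples of single CD8.1 samples, and the 2 members just short of the limit, were chosen after their values were seen. Alternatives were DESeq2 1.42.0 (size factors, Wald test), limma-voom 3.58.1, other filters, only the groups compared, replicate blocks, length and GC offsets and each sample left out. Leaving out CD8.1 replicate 1 together with the GC offset was chosen after seeing the data. Figures were drawn with matplotlib 3.10.9. The level of 1 single gene is not reported here.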

Additional observations from a re-analysis of the deposited data

Results flagged for a closer look

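Counts above 3 in a sample were found in 9 genes that carry a respiratory chain symbol but that the rule left out, either for a mean under 10 counts or for a pseudogene symbol. Among the isoforms under the limit, *Cox4i2* reached 5 counts in a sample and *Cox7a1* 8. Among pseudogene symbols, the highest count in a sample was 90 for *Uqcrh-ps1*, 74 for *Atp5l2-ps*, 34 for *Uqcrh-ps2*, 25 for *Ndufab1-ps*, 14 for *Atp5l-ps2*, 12 for *Atp5l-ps1* and 10 for *Atp5k-ps2*. Summed over the 3 samples of a group, *Uqcrh-ps2* had 22 counts in the CD8.1 group and 66, 66 and 70 in the B6 CD4+, B6 CD8+ and CD8.2 groups, and *Uqcrh-ps1* had 238 against 198, 160 and 201. Each is small beside its parent gene (*Uqcrh* had 8028 to 14944 counts per sample), and reads of a gene and a near-identical copy may be shared between them.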

How the results depend on the processing

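No result reversed. The median log2 fold change of the members stayed between -0.06 and 0.04 in all comparisons and settings, and *Ndufa10* in both lineage comparisons, *Cox8a* in B6 and *Ndufa11* and *Sdhd* in CD8 Dual mice were called under every alternative, with the cause of other differences not tested. With each sample left out in turn, calls higher and lower ranged from 0 to 2 and 2 to 3 in B6 CD4+ against CD8+, from 1 to 12 and 3 to 19 in CD8.1 against CD8.2, from 0 to 14 and 0 to 13 in CD8.1 against B6 CD4+, stayed at 0 and 0 in CD8.2 against B6 CD8+, and ranged from 0 to 6 and 0 to 8 for the strain difference. The highest values in the 3 with CD8.1 came without CD8.1 replicate 1, and without any other sample calls were at most 2 and 6, 4 and 2, and 0 and 0. The GC offset without CD8.1 replicate 1 gave 13 and 19, 16 and 11, and 5 and 8. These calls were 37.2%, 31.4% and 15.1% of the members, against 33.7%, 21.4% and 6.75% of all tested genes.

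Apart from the fits without CD8.1 replicate 1, counts of calls under alternatives are of members only. The share of all tested genes called in the same fit is not given, so that a general change in calls is not separated. In B6 CD4+ against CD8+, DESeq2's Wald test called 1 higher. In CD8.1 against CD8.2, against 4 higher, DESeq2 called 7, no filter 7, only the groups compared 2, the replicate block 8 and the length offset 2, and against 6 lower, no filter called 10 and the length offset 13, with or without the block. In CD8.1 against B6 CD4+, against 2 higher, DESeq2 called 4, limma-voom 1, the GC offset 5, and only the groups compared and the length offset, with or without the block, 0, and against 3 lower, no filter called 5, only the groups compared 0 and the length offset 6, with or without the block. In CD8.2 against B6 CD8+, only the groups compared called 1 higher and 2 lower and the length offset 1 lower, against 0. For the strain difference, DESeq2 called 1 higher and no filter 2 lower, against 0. The median level was 106 CPM per kb with the longest coding transcript, against 93.0.

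The replicate block changed no call in B6 mice (0 higher, 3 lower), where the numbers pair the samples. In CD8.1 against CD8.2 it gave 8 higher and 8 lower. There r was -0.00388 to 0.119 for same-numbered samples and -0.127 to 0.0321 for others, so that a pairing was not settled. The block gave 3 and 2 in CD8.1 against B6 CD4+, and 0 in the other 2. Same-numbered samples of different strains (r -0.197 to -0.00411) were not taken as pairs. Fits of only the groups compared rest on 6 samples. Precision is limited for members with few counts, *Cox6b2* having 5 to 17 per sample.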
